A study of Mus musculus with 4 samples.

Results

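Mature Ccr7+ dendritic cell (DC) nuclei made up 1919 of the 40915 liver nuclei in which at least 1000 unique molecular identifiers (UMIs) had been counted. A nucleus was a member when its summed UMIs of Fscn1, Cacnb3, Il4i1, Socs2, Nudt17, Anxa3 and Ccr7 reached 5 or more. It could hold at most 1 UMI of Txk, Ncr1 and Cd3e together, at most 1 of Siglech and Grm8 together, and at most 2 of C1qa, C1qb and C1qc together, which set limits on NK and T cell, plasmacytoid DC and macrophage RNA. The nuclei came from livers of C57BL/6J mice and had been sorted as living CD45+ CD64- CD11c+ cells before nuclei were extracted. Both groups share this gate. D0 mice had spent 0 days and D5 mice 5 days on chow with 0.1% DDC (3,5-diethoxycarbonyl-1,4-dihydrocollidine), a xenobiotic that injures the bile ducts. RNA and open chromatin (ATAC) were read from the same nuclei in 1 library per day, so that the 4 samples are the RNA and ATAC layers of 2 libraries. The number of animals behind a library is not given in the sources used here, and feeding time and library cannot be told apart.

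Mature DCs, also called migratory DCs, are conventional DCs that have taken up antigen or received an inflammatory or tissue signal and then switch on a shared programme. They stop sampling, raise costimulatory ligands, load antigen on MHC molecules and gain the chemokine receptor Ccr7, which guides them along Ccl19 and Ccl21 into lymphatics and on to lymph nodes. Both conventional lineages, the cross-presenting cDC1 and the CD4 T cell-priming cDC2, can enter this state, and much of what tells the lineages apart is lowered as they do.

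Of the 7 genes in the rule, Ccr7 is the homing receptor itself and Fscn1 encodes fascin, which bundles actin in the long processes of mature DCs. Cacnb3 encodes a calcium channel subunit, Il4i1 a secreted amino acid oxidase, Socs2 a feedback inhibitor of cytokine signalling, Nudt17 a protein of the Nudix hydrolase family and Anxa3 an annexin. To show the regulatory sequence beside the chromatin values given further on, 250 bases immediately upstream of the transcription start are printed for 5 rule or maturation genes whose start-site windows were more open in members than in both conventional DC references on both days. The sequences are from RefSeq, build GRCm38.p6, and each overlaps a peak found in both libraries. Capitals mark matches, on either strand, to a relaxed form of the NFkB site, GGGA and CC spaced by any 4 bases.

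Cacnb3, chr15:98634517-98634766, plus strand: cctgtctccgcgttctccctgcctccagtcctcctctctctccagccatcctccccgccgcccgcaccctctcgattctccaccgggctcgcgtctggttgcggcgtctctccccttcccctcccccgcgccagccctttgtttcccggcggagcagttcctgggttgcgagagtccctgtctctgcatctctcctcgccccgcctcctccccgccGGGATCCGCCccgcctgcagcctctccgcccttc
Lad1, chr1:135818348-135818597, plus strand: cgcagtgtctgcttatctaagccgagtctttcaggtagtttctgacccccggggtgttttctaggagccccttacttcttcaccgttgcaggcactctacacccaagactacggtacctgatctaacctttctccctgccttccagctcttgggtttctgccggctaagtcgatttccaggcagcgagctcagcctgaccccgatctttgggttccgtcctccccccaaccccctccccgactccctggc
Arpin, chr7:79935265-79935514, minus strand: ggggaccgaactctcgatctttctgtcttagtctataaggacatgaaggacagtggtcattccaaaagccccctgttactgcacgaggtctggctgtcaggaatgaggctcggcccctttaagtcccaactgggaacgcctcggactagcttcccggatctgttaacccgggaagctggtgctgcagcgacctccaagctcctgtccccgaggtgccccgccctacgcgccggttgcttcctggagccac
Fscn1, chr5:142960105-142960354, plus strand: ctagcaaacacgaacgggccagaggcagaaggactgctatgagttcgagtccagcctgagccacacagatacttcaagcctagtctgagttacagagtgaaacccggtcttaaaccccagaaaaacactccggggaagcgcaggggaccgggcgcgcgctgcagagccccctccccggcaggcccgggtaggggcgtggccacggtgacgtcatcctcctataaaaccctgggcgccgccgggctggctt
Tmem150c, chr5:100159576-100159825, minus strand: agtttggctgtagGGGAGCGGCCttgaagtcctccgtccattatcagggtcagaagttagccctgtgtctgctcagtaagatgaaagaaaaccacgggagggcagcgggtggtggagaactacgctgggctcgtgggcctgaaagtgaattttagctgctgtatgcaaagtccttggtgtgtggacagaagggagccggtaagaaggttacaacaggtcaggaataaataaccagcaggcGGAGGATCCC

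The Cacnb3 window holds 1 match and the Tmem150c window 2, while those of Lad1, Arpin and Fscn1 hold no such letters. Among 32851 RefSeq promoter windows of this length, 17.6% hold at least 1 match. The AP-1-like TGANTCA (6.75% of all windows) and an interferon response-like motif, GGAA and GAAA spaced by any 2 bases (2.30%), have no match in any of the 5. A match is only a match of letters. Ccr7, Slco5a1, Il15 and Socs2 were chosen by the same order and have no entry.

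At D0 395 of 14282 nuclei were members, which is 2.77% (2.50 to 3.05). At D5 1524 of 26633 were, which is 5.72% (5.45 to 6.01). Ranges in parentheses are 95% intervals throughout and cover counting error only. They are exact, apart from those of differences between shares, which combine 2 exact intervals approximately. The share at D5 was 2.96 percentage points above that at D0 (2.56 to 3.35), and it was also higher among nuclei within the exclusion limits, at 5.44% of 7258 and 7.66% of 19889. The D5 library was deeper, with a median of 3144 UMIs per member against 2183, and a fixed sum of 5 is easier to reach in a deep nucleus. Every nucleus was then thinned at random to 1000 UMIs, and the rule and its limits were applied again. By these counts 248 nuclei (1.74%, 1.53 to 1.96) were members at D0 and 621 (2.33%, 2.15 to 2.52) at D5. That is a difference of 0.595 points (0.306 to 0.876). More nuclei met the exclusion limits after thinning, 9833 at D0 and 23267 at D5. Among thinned nuclei within the exclusion limits the shares were 2.52% (2.22 to 2.85) at D0 and 2.67% (2.47 to 2.88) at D5, and their intervals overlap. The difference was thus much smaller at matched depth, and on that denominator it was within counting error. Doublet scores moved with it too. A Scrublet score of at least 0.2 was given to 16.2% of members at D0 and 30.8% at D5, against 23.4% and 25.6% of all nuclei, and leaving those nuclei out gave a difference of 2.30 points.

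Members held a median marker sum of 11 UMIs at D0 and 12 at D5, the highest sums being 49 and 60, and a median of 4 of the 7 markers. No gap appeared at the threshold, and low whole-number sums could hardly show one. At a sum of 5, just inside the rule, lay 37 nuclei at D0 and 158 at D5, and at a sum of 4, just outside it, lay 55 and 228. A list of 30 maturation genes not in the rule, summed, stood at 8323 and 6693 CPM (UMIs of a gene or list per 1000000 UMIs of the group) in the nuclei with a sum of 4, at 10213 and 7465 in those with a sum of 5 and at 15801 and 12708 in those with 20 or more. Genes of immature DCs ran the other way, from 3447 and 2625 CPM at a sum of 4 to 1420 and 1536 at 20 or more. The rule therefore set a cut-off on graded counts, and the members with low sums carried less RNA of the summed maturation list in both libraries. Doublet scores of at least 0.2 were given to 23.6% and 31.6% of nuclei with a sum of 4 and to 14.1% and 28.2% with 20 or more. Whether the gradient reflects intermediate states, doublets or RNA from outside the nuclei was not tested.

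**Figure D1:**
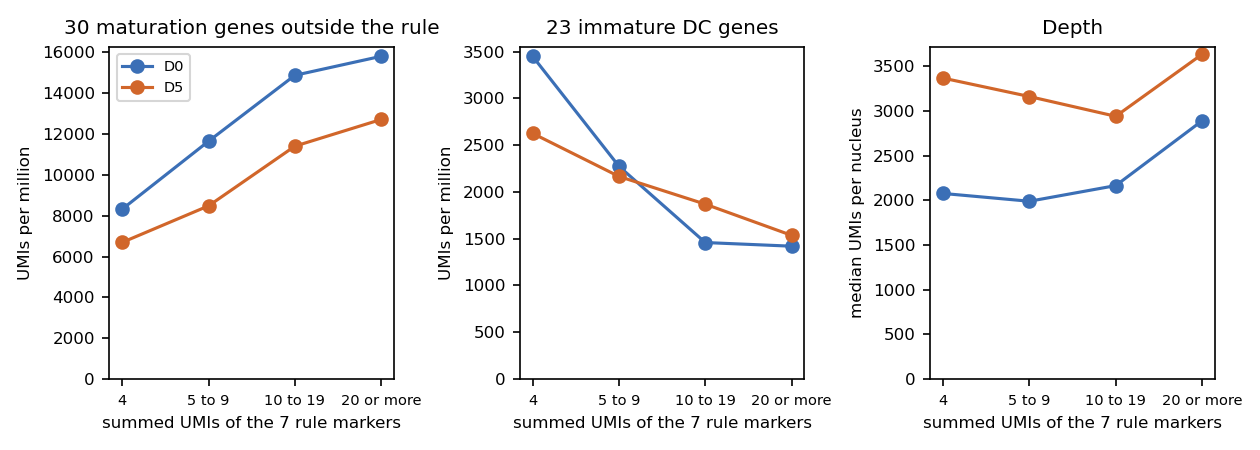
Summed level of the 30 maturation genes outside the rule (left), of 23 immature DC genes (middle), both in UMIs per 1000000 UMIs, and the median UMIs per nucleus (right), against the summed UMIs of the 7 rule markers from 4 (outside the rule) upwards, with 1 line per day. Maturation RNA climbs with the marker sum from 8323 to 15801 CPM at D0 and from 6693 to 12708 at D5, while immature DC RNA declines.

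Most maturation genes other than those in the rule were also higher in members than in reference DC nuclei. Members were set beside cDC1-like nuclei (1233 at D0, 1704 at D5) and cDC2-like nuclei (1836 and 7485), which passed the same limits, held at most 1 UMI of the rule markers, and held at least 3 UMIs of 1 lineage list and at most 1 of the other. Because members and references were picked on RNA of the rule markers, genes that go with those markers differ by construction. The lists were also chosen with earlier results of these data known. These values therefore describe the members, are no separate support for the label and were not tested. The median log2 ratio of the maturation list was 3.02 at D0 and 3.04 at D5 over cDC1-like nuclei, beside medians over all genes of -0.18 and -0.11. Over cDC2-like nuclei it was 2.16 and 2.26, beside -0.06 and -0.04. Of 28 maturation genes with a mean of at least 20 CPM, 23 were more than 2-fold above cDC1-like nuclei at D0, where 9.07% of all genes were, and 22 of 26 were at D5, where 8.18% were. Over cDC2-like nuclei the counts were 24 of 28 (7.29% of all genes) and 20 of 26 (5.41%). Lineage genes lay the other way, partly because they chose the references. Of 16 listed cDC1 genes, 15 were more than 2-fold below cDC1-like nuclei on each day (10.8% and 4.88% of all genes). Of 19 measured immature DC genes, 15 and 10 were more than 2-fold below cDC2-like nuclei (7.04% and 1.92%), which some of them had helped to choose. Over cDC1-like nuclei the immature list did not lie below, with medians of 0.21 (15 genes) and 0.62 (16 genes). There 4 and 7 genes were more than 2-fold higher (9.07% and 8.18% of all genes). Another 3 and 2 were more than 2-fold lower (10.8% and 4.88%).

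Ccr7 itself was at 2377 and 1749 CPM in members, against 15.2 to 36.7 CPM in the 4 reference groups. Fscn1 was at 943 and 540 CPM, against 3.84 to 6.58. Outside the rule, the gene that stood out most was Slco5a1, a solute carrier of the organic anion transporter family, with 149 and 84.9 CPM in members and at most 0.37 in any reference group. In cDC1-like nuclei at D0 no Slco5a1 UMI was counted, and against the 3 UMIs that a count of 0 allows in that group the members were at least 144-fold higher. Dkk2, which encodes a secreted modulator of Wnt signalling, was at 45.5 and 42.7 CPM, Dscaml1, which encodes an adhesion molecule of the immunoglobulin superfamily, at 84.3 and 51.8, and H2-M2, a class Ib MHC gene, at 169 and 61.8. The other genes among the 10 with the highest ratios were Cacnb3, Fscn1, Nudt17, Tmem150c, Ccr7 and Ankrd33b, so that 4 of the 10 were genes of the rule. At the other end stood Entpd1, the ectonucleotidase CD39, with 69.7 and 47.2 CPM in members, 245 and 198 in cDC1-like nuclei and 213 and 89.3 in cDC2-like nuclei. Tbxas1 (thromboxane synthase), Hepacam2, Tg, St3gal5, March1, Impa2, Slc9a9, Klhl6 and Tm6sf1 completed the 10 lowest. March1 encodes the ubiquitin ligase that removes MHC class II and CD86 from the surface of immature DCs.

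NFkB is the transcription factor family through which Tnf, CD40 and Toll-like receptors drive DC maturation. Of its 22 listed components and feedback genes, 19 were more than 2-fold above cDC1-like nuclei at D0, and 19 of 21 at D5, with medians of 1.67 and 1.65 (9.07% and 8.18% of all genes were). Over cDC2-like nuclei 6 of 22 were on each day (7.29% and 5.41% of all genes), with medians of 0.37 and 0.46. Relb, the subunit tied to mature DCs, was at 658 and 489 CPM in members, 48.1 and 43.3 in cDC1-like and 122 and 94.96 in cDC2-like nuclei. Nfkb1 was at 850 and 808 CPM in members and at 991 and 895 in cDC2-like nuclei, so that the family was not uniformly higher. Of the CD28 ligands that costimulate T cells, Cd80 was at 382 and 409 CPM in members, 140 and 120 in cDC1-like and 372 and 280 in cDC2-like nuclei. Averaged over members, Cd86 differed little from the references (700 and 724 CPM against 600 to 719). It was lower at higher marker sums, with 874 and 854 CPM at sums of 5 to 9. At 20 or more it was at 402 and 585 CPM, while the summed maturation list was higher there.

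**Figure D2:**
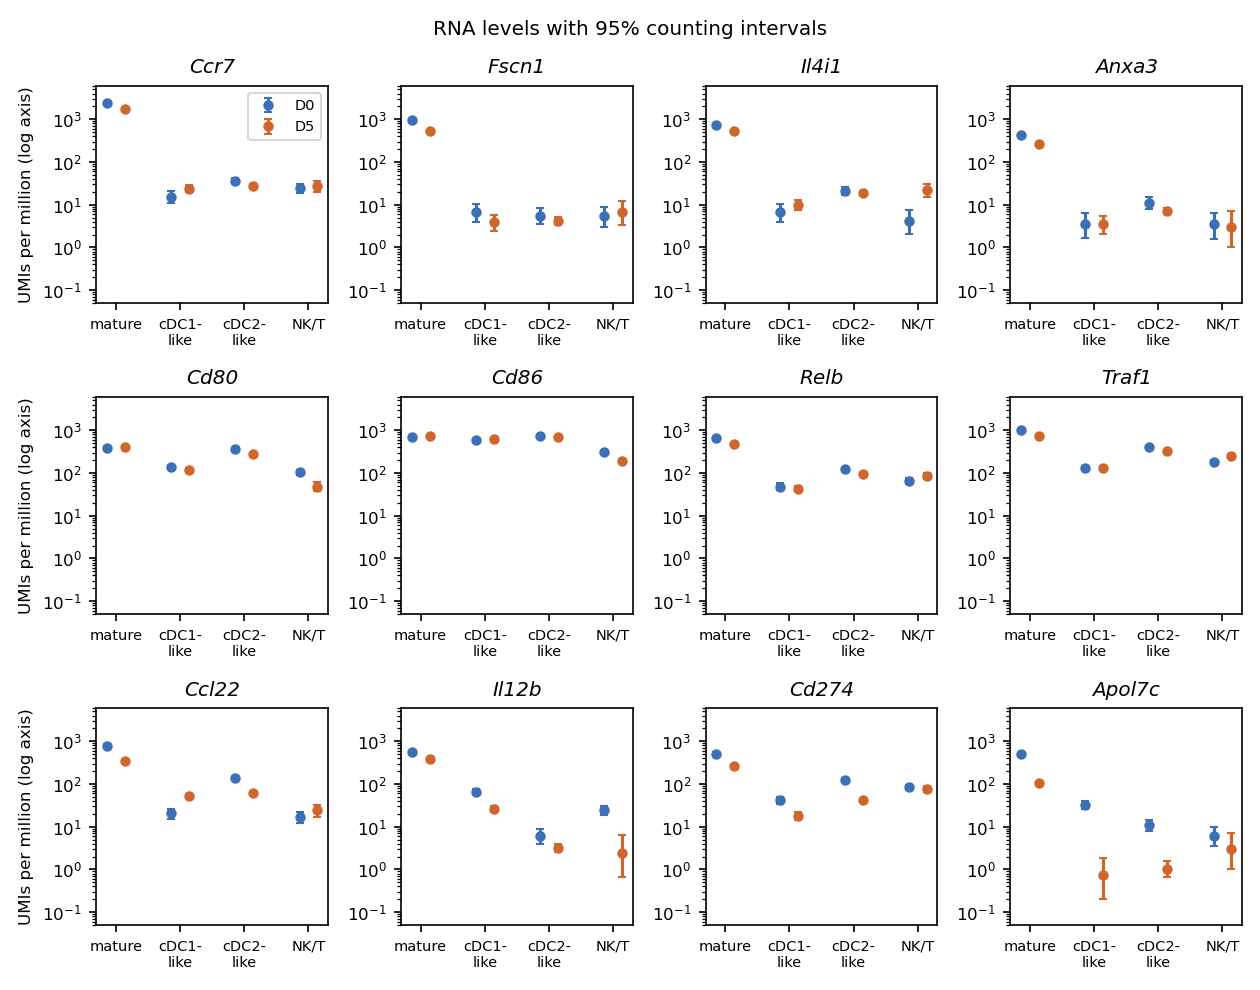
Levels in UMIs per 1000000 UMIs, on a log axis, of 4 rule markers (Ccr7, Fscn1, Il4i1, Anxa3) and of Cd80, Cd86, Relb, Traf1, Ccl22, Il12b, Cd274 and Apol7c in mature Ccr7+ DC, cDC1-like, cDC2-like and NK or T nuclei at D0 and D5, with exact 95% Poisson intervals as bars. Ccr7 and Fscn1 lie far above every reference group (at most 36.7 CPM of Ccr7), whereas Cd86 lies near the DC references.

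The rule itself caps 8 markers of other cell types, so sums are given with and without them. The 13 NK and T cell markers summed to 829 CPM at D0 and 360 at D5, beside 7124 and 9126 in reference NK or T nuclei of the same libraries, which were chosen after seeing the data for this comparison. Without the 3 capped genes the sums were 793 and 347 CPM in members and 5389 and 7229 in NK or T nuclei. Plasmacytoid DC markers summed to 444 and 360 CPM (396 and 331 without the 2 capped genes), macrophage markers to 78.5 and 57.3 (46.5 and 33.7 without the 3), B cell markers to 22.3 and 13.8, neutrophil markers to 8.72 and 37.9, hepatocyte markers to 130 and 107, endothelial markers to 86.2 and 44.8 and cholangiocyte markers to 9.69 and 20.9. NK and T cell RNA was thus about as high in cDC1-like (859 and 360 CPM) and cDC2-like nuclei (803 and 406) as in members on each day. Of the barcodes, 591 occur in both libraries, 12 of them on members at D0 and 35 on members at D5. Results without these members differed little (a share difference of 2.93 points).

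Most of the maturation programme was lower per UMI in D5 members than in D0 members. Among 6157 genes with a mean of at least 20 CPM over both days, 89 (1.45%) were more than 2-fold higher at D5 and 221 (3.59%) more than 2-fold lower, and the median log2 ratio of all was -0.09. The excess of lower genes depends on the scaling and the filter, with 185 higher and 106 lower under TMM factors and 3926 and 3319 without the CPM minimum. In cDC1-like nuclei 0.435% were higher and 3.95% lower by this measure, and in cDC2-like nuclei 0.319% and 2.97%. All 7 rule markers were below 0, with a median of -0.81. These values are part of what chose the members. Of 29 measured maturation genes outside the rule, 26 were below 0, 22 with an interval wholly below 0, and 7 were more than 2-fold lower, with a median of -0.80. None was more than 2-fold higher. How many of all genes were below 0, or had an interval wholly below 0, was not counted for this or later lists. The median of all genes was itself below 0. Under TMM factors the median of all genes was 0.12, and 23 of the 29 were below 0, 20 with an interval wholly below 0. By that scaling 3 of the 29 were more than 2-fold lower. Depth moved with this result as well. A fixed sum of 5 let nuclei with a lower marker level into the deeper D5 library. At that sum the rule markers stood at 1872 CPM at D0 and 1291 at D5. Genes that go with the markers can thus be lower per UMI at D5 through the choice of members. How far this was so was not tested. The median of the rule markers was -0.28 after thinning. In members chosen and counted after thinning to 1000 UMIs, the same 29 genes had a median of -0.30, with 21 below 0, 10 intervals wholly below 0 and 2 wholly above. Without high doublet scores the median was -0.51. The same genes had medians of -0.32 in cDC1-like and -0.51 in cDC2-like nuclei of the same 2 libraries, with no CPM minimum applied there. Over the 19 maturation genes with a mean of at least 20 CPM in each reference group, the medians were -0.21 and -0.36. The difference between cell groups was not tested.

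Among the rule markers, whose values chose the members, Ccr7 was counted 2454 times at D0 and 10531 times at D5, a log2 ratio of -0.44 (-0.51 to -0.38), and stood at 0.04 (-0.07 to 0.16) in thinned members, which were chosen again and so differ in membership as well as depth (3524 and 3634 CPM). Nudt17 kept the largest ratio of the rule markers. It was at 181 and 48.8 CPM, a log2 ratio of -1.89 (-2.16 to -1.62), and at -1.15 (-1.63 to -0.66) after thinning. Among maturation genes, Apol7c, an apolipoprotein L family gene of activated cDC1, was at 500 CPM at D0 and 105 at D5, a log2 ratio of -2.26 (-2.43 to -2.09), and at -1.75 (-2.07 to -1.43) after thinning. The same gene was at 32.2 and 0.73 CPM in cDC1-like and 10.9 and 1.04 in cDC2-like nuclei, and the lower level at D5 was therefore seen in all 3 DC groups. Il15, a cytokine that sustains NK cells and memory CD8 T cells, was at 81.4 and 27.9 CPM (-1.54, -1.93 to -1.15; after thinning -0.76, -1.57 to 0.07). Serpinb9, an inhibitor of granzyme B, had a log2 ratio of -1.14, and -0.66 after thinning. Tbc1d4, a Rab GTPase-activating protein, did not follow the list, at 1940 and 1952 CPM, and was higher after thinning (0.39, 0.26 to 0.52).

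**Figure D3:**
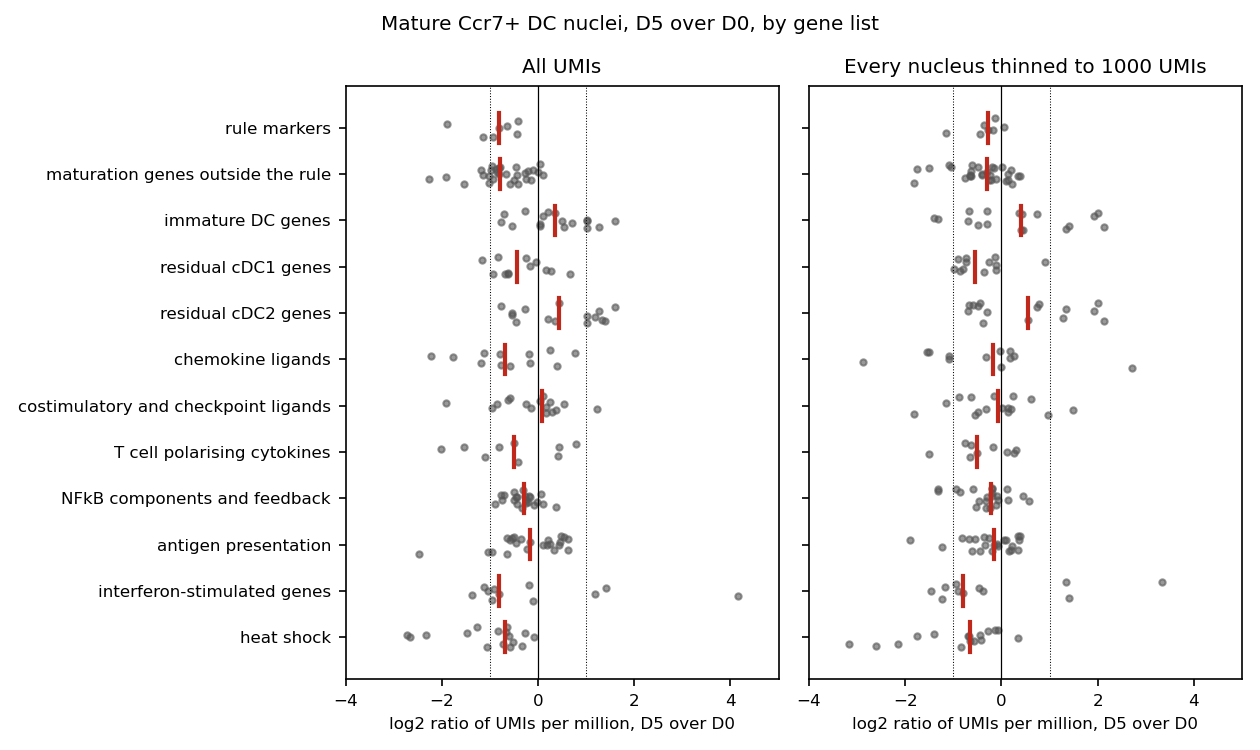
Log2 ratio of D5 over D0 in mature Ccr7+ DC nuclei for the measured genes of 12 lists (points, the red bar being the list median and the dotted lines 2-fold), with all UMIs (left) and, for the same genes, after thinning nuclei to 1000 UMIs (right). Maturation genes centre on -0.80 with all UMIs and on -0.30 after thinning, while the heat shock list stays near its value (-0.69 and -0.66).

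Chemokine ligands, by which mature DCs draw in T cells and other leukocytes, had a median of -0.68 over 12 measured genes and of -0.17 after thinning. Of the 12 genes, 4 were more than 2-fold lower (3.59% of all genes were). Ccl22, a ligand of Ccr4 on regulatory T cells, was at 790 CPM at D0 and 345 at D5, a log2 ratio of -1.19 (-1.31 to -1.08), and at -1.09 (-1.35 to -0.83) after thinning. In cDC2-like nuclei it was likewise lower (139 and 62.4 CPM), and in cDC1-like nuclei it was higher at D5 (20.4 and 52.6 CPM). Ccl17, the other Ccr4 ligand, was at 223 and 128 CPM. The Cxcr3 ligands Cxcl9 and Cxcl10, both induced by interferon gamma, were at 215 and 62.8 CPM (-1.78, -2.02 to -1.53) and at 97.8 and 21.1 CPM (-2.21, -2.60 to -1.82). Xcl1, a chemokine of NK and CD8 T cells, was at 314 and 144 CPM in members, at similar levels in cDC1-like nuclei (305 and 143), and at 1870 and 2512 CPM in NK or T nuclei. How far RNA from outside the nuclei makes up the Xcl1 counts was not tested. Cxcl2, a neutrophil attractant, differed from the list, at 29.1 and 49.7 CPM (0.77, 0.23 to 1.37; after thinning 2.72). The thinned ratio rests on few Cxcl2 UMIs, since D0 then had 248 members of 1000 UMIs each.

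The costimulatory and checkpoint list did not follow the maturation list as a whole, with a median of 0.07 over 16 genes and -0.07 after thinning. Cd80 and Cd86 had log2 ratios of 0.10 (-0.05 to 0.26) and 0.05 (-0.07 to 0.16). The PD-1 ligands were both lower. Pdcd1lg2, which encodes PD-L2, was at 101 and 26.9 CPM (-1.91, -2.27 to -1.54; after thinning -1.82, -2.81 to -0.87). Cd274, which encodes PD-L1, was at 502 and 258 CPM (-0.96, -1.11 to -0.82; after thinning -0.48, -0.77 to -0.19). Cd40, the receptor for CD40 ligand on T cells, was at 147 and 81.2 CPM (-0.86, -1.12 to -0.59). Tnfsf4, the OX40 ligand that acts on CD4 T cells, was higher, with 14 UMIs or 13.6 CPM at D0 and 191 UMIs or 31.7 CPM at D5 (1.23, 0.44 to 2.12; after thinning 1.48, -0.03 to 3.46).

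Of 9 measured T cell polarising cytokine genes, 3 were more than 2-fold lower (3.59% of all genes were) and none more than 2-fold higher (1.45%). Their median was -0.51, and -0.50 after thinning. Aldh1a2, which makes the retinoic acid that favours regulatory and gut-homing T cells, was at 61.0 and 15.1 CPM (-2.01, -2.49 to -1.53; after thinning -1.50). Il12b, the p40 subunit shared by IL-12 and IL-23, was at 558 and 393 CPM (-0.51, -0.64 to -0.37), and at -0.18 (-0.43 to 0.08) after thinning. Its direction turned in members with neither lineage (0.45) and with thinning and doublet removal together (0.017). Tnf was at 62.96 and 29.2 CPM. Il1b was higher in D5 members, at 1177 and 1596 CPM (0.44, 0.35 to 0.53), where cDC2-like nuclei held more of it (2624 and 2278 CPM). The polarising genes thus did not move as a block.

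None of the 22 NFkB genes was past 2-fold in either direction, where 1.45% of all genes were higher and 3.59% lower. Finding none in a list of this size is near those shares. Of the 22 genes, 19 were below 0 (median -0.29, after thinning -0.21, under TMM factors -0.08). Tnfaip3, the deubiquitinase A20 that ends NFkB signalling, was at 339 and 198 CPM (-0.78, -0.95 to -0.60). Nfkb1 had a ratio of -0.07 (-0.18 to 0.03). The 20 DC transcription factors likewise held none past 2-fold (median -0.29), which is also near the shares of all genes. Of 15 measured migration receptors and cytoskeletal genes, 1 was more than 2-fold higher (1.45% of all genes were), and the median was -0.12. The 1 gene was Ccr1, a receptor for inflammatory chemokines (26.2 and 55.6 CPM). Gpr183, the oxysterol receptor that positions DCs, was at 565 and 729 CPM (0.37, 0.24 to 0.50; after thinning 0.29, 0.03 to 0.55).

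Antigen presentation genes differed by class, a grouping made after their values were seen. All 10 listed class II genes, Cd74 and Ciita included, had ratios above 0 (median 0.39), 8 of 10 after thinning. H2-Aa was at 6505 and 8861 CPM (0.45, 0.41 to 0.48), H2-Ab1 at 5868 and 8195 (0.48, 0.44 to 0.52), and Cd74, the invariant chain, at 12502 and 15796 (0.34, 0.31 to 0.36), with thinned ratios of 0.38, 0.35 and 0.20. All 11 listed class I pathway genes had ratios below 0 (median -0.53), also after thinning. H2-K1 was at 2520 and 1622 CPM (-0.64, -0.70 to -0.57) and H2-D1 at 2867 and 1828 (-0.65, -0.71 to -0.59), with thinned ratios of -0.45 and -0.61. B2m, the light chain, had a ratio of -0.46, Tap2, a subunit of the peptide transporter, -1.03, and Nlrc5, the class I transactivator, -0.95. The lipid-presenting Cd1d1, which is recognised by NKT cells, was at 133 and 23.9 CPM (-2.47, -2.82 to -2.12; after thinning -1.90, -2.58 to -1.23). Over all 23 genes the median was -0.17 with 2 more than 2-fold lower (3.59% of all genes were). Under TMM scaling, which shifts every log2 ratio up by 0.21, that median turned to 0.04 and the median of all genes from -0.09 to 0.12, while all 10 class II genes stayed above 0 and 10 of 11 class I genes below. In cDC1-like nuclei 7 of 10 class II genes were above and 7 of 11 class I genes below 0, and in cDC2-like nuclei 8 of 10 and 10 of 11.

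Interferon-stimulated genes split too. Of 11 measured, 8 were below 0, 3 of them more than 2-fold (3.59% of all genes were), and the median was -0.80. Oasl1, Rsad2 and Usp18, antiviral or feedback genes of the type I response, had ratios of -1.37, -1.04 and -1.12. The 3 above 0 were the Ifitm genes, membrane proteins that block virus entry. Ifitm1 was counted 21 times at D0 and 2191 times at D5, or 20.3 and 364 CPM (4.16, 3.54 to 4.86; after thinning 3.34, 2.26 to 4.67). Ifitm2 was at 403 and 1076 CPM and Ifitm3 at 341 and 775. Ifitm1 was also higher at D5 in cDC1-like (13.8 and 207 CPM), cDC2-like (40.5 and 656) and NK or T nuclei (16.5 and 279). All 16 heat shock genes were lower at D5, 6 of them more than 2-fold (3.59% of all genes were). Their median was -0.69 (-0.48 under TMM factors) and, in cDC1-like and cDC2-like nuclei, -0.76 and -0.84 over the same genes. Hspa1b, an inducible chaperone, was at 1113 and 176 CPM in members and at 1223 and 179 in NK or T nuclei. Immediate early genes, which answer many stimuli before new protein is made, had a median of -0.18.

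The gene with the highest ratio of D5 over D0 was Cyp7b1, an oxysterol 7-alpha-hydroxylase of the acidic bile acid pathway. It was counted once in D0 members (0.97 CPM) and 342 times in D5 members (56.8 CPM), a log2 ratio of 5.87 (3.39 to 11.18). cDC2-like nuclei held 5.32 and 37.4 CPM and cDC1-like nuclei 0.69 and 4.57. After Ifitm1 came Wfdc17, a secreted protein of activated myeloid cells, at 68.8 and 273 CPM, Glis3, a zinc finger factor, at 8.72 and 32.6, and Dab2, an endocytic adaptor, at 38.7 and 126. Glis3 was at 1.73 and 1.46 CPM in cDC1-like and 9.62 and 9.38 in cDC2-like nuclei, where no such difference between the days was seen. Slc15a2 (a peptide transporter), Clec10a (a galactose-binding lectin of cDC2), Tmem147, Mmp14 (a membrane-bound metalloproteinase) and Rab24 completed the 10 highest. The lowest were Ccl24, an eotaxin, at 67.8 and 4.32 CPM (-3.97, -4.68 to -3.31), and then Gimap6, Hsph1, Gbp4, Hspa1b, Gbp2, Cd1d1, Skap1, Hspa1a and Cxcr6. Gbp2 and Gbp4 are interferon gamma-induced GTPases. Gimap6, Skap1 and Cxcr6 are lymphocyte genes that NK or T nuclei held at 731 and 644, 694 and 653, and 342 and 388 CPM. In members they were at 92.0 and 12.3, 61.0 and 12.0, and 45.5 and 9.47 CPM, and 6 of 6 measured NK and T cell markers were lower at D5 (median -1.05).

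UMIs of genes of the 2 conventional lineages were counted in part of the members. How many of them came from background RNA or doublets was not tested. Genes of immature DCs had a median ratio of 0.35 (0.41 after thinning) over 17 genes, 5 of them more than 2-fold higher at D5 (1.45% of all genes were). In members with neither lineage (sorted as given further on) the median of the immature list was -0.12, and with thinning and without high doublet scores it was 0.08. Members with neither lineage hold at most 1 UMI of 9 cDC2 genes, several of which are on the immature and cDC2 lists. Their medians for these lists are therefore partly set by that choice. The longer cDC2 list, which shares genes with the immature list, had a median of 0.43 over 15, 7 of them more than 2-fold higher (1.45% of all genes). Its direction was not stable. After thinning, 7 of the same 15 genes were below 0 (median 0.55), and over the genes that then reached 20 CPM the median was -0.34. In members with neither lineage it was -0.26, a value that the limit on cDC2 UMIs partly sets. The longer cDC1 list had a median of -0.43 (-0.55 after thinning) over 12, 1 of them more than 2-fold lower, beside 3.59% of all genes. Clec10a was at 54.2 and 164 CPM (1.59, 1.21 to 2.01), with 470 and 499 in cDC2-like nuclei. Cd209a, a C-type lectin of monocyte-like cDC2, was at 101 and 204 CPM (1.02, 0.73 to 1.32; after thinning 2.00). Il1r2, the decoy receptor for IL-1, was at 205 and 541 CPM (1.40, 1.20 to 1.60; after thinning 1.29), with 858 and 942 in cDC2-like nuclei. Not all cDC2 genes followed, since Sirpa, which encodes the signal-regulatory protein alpha, was at 219 and 150 CPM. On the cDC1 side Clec9a, the receptor for dead cells, was at 139 and 61.6 CPM (-1.17, -1.45 to -0.88) and Irf8, the factor that fixes cDC1 identity, at 669 and 377 CPM (-0.83, -0.95 to -0.70). NK or T nuclei, which should lack Clec9a, held 205 and 36.9 CPM of it, and of Irf8 668 and 341. The Clec9a level of D0 members was below, and their Irf8 level close to, that of those nuclei, and the part of background RNA in either difference was not tested.

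Nuclei were then sorted by 8 cDC1 genes (Xcr1, Clec9a, Cadm1, Itgae, Tlr3, Gcsam, Snx22, Rab7b) and 9 cDC2 genes (Sirpa, Itgam, Clec10a, Mgl2, Cd209a, Csf1r, Clec4a1, Clec4a3, Clec12a), with at least 2 UMIs of a set counting as RNA of that lineage. At D0, 36 members (9.11%) held cDC1 RNA only, 107 (27.1%) cDC2 RNA only, 42 (10.6%) both and 210 (53.2%) neither. At D5 these were 89 (5.84%), 621 (40.7%), 250 (16.4%) and 564 (37.0%). Among members with RNA of 1 lineage, 74.8% (66.9 to 81.7) at D0 and 87.5% (84.8 to 89.8) at D5 carried that of cDC2. In thinned nuclei the shares were 18 of 31 (58.1%, 39.1 to 75.4) and 53 of 69 (76.8%, 65.1 to 86.1), whose intervals overlap. NK or T nuclei, which are not conventional DCs, were set beside the members for comparison. Genes of these sets such as Itgam and Itgae need not be absent from NK or T cells. The shares in NK or T nuclei are therefore not a pure background. NK or T nuclei were chosen with doublet scores below 0.2, whereas 16.2% of members at D0 and 30.8% at D5 scored 0.2 or higher. The 2 groups are thus not matched for doublets, also after thinning. In NK or T nuclei (median depths 1510 and 1894 UMIs) at least 2 cDC1 UMIs were held by 24.4% at D0 and 4.94% at D5. At least 2 cDC2 UMIs were held by 22.2% and 18.4%. All members with at least 2 cDC1 UMIs were 19.7% and 22.2%, and with at least 2 cDC2 UMIs 37.7% and 57.2%. As counted, the members' cDC1 share at D0 was not above that of NK or T nuclei. The members' cDC1 share at D5 and cDC2 shares on both days were. At matched depth the cDC1 share at D0 was 5.24% of members (2.82 to 8.80) and 2.94% of NK or T nuclei (1.66 to 4.80), whose intervals overlap. At D5 it was 2.90% (1.73 to 4.54) and 0 of 247 (0 to 1.48). The thinned cDC2 shares were 7.26% (4.36 to 11.2) and 3.14% (1.80 to 5.04) at D0, and 8.86% (6.74 to 11.4) and 4.86% (2.54 to 8.33) at D5, higher in members by margins at which the intervals still overlap. What the UMIs in NK or T nuclei come from was not tested.

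Members with both kinds of RNA differed in quality from the others. Their median was 4245 UMIs at D0 and 6164 at D5, and 61.9% and 72.4% had a doublet score of at least 0.2, against 5.24% and 7.09% of members with neither, whose medians were 1896 and 2384 UMIs. Members with RNA of 1 lineage lay between these groups. Such scores were given to 27.8% and 39.3% of members with cDC1 RNA only (medians 2418 and 3825 UMIs). With cDC2 RNA only they were given to 15.9% and 34.5% (medians 2397 and 3821 UMIs). Among the members with neither lineage alone, the maturation list still had a median ratio of D5 over D0 of -0.48.

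The ATAC layer of the same nuclei was not used by the rule. It is a second layer of nuclei chosen by RNA of some of these loci, so it is no independent support for the label. Fragments were counted within 2 kb of annotated start sites, in 127216 regions with peaks in both libraries, and are given as fragment CPM, scaled to the fragments in all these regions. The 7 rule-marker loci together held 424 fragment CPM in members at D0 and 394 at D5, against 212 and 188 in cDC1-like, 262 and 272 in cDC2-like and 256 and 318 in NK or T nuclei. That is a log2 ratio of 0.998 and 1.07 over cDC1-like and of 0.69 and 0.54 over cDC2-like nuclei. The 30 maturation loci outside the rule held 1502 and 1534, against 1041 and 1069 in cDC1-like and 1222 and 1244 in cDC2-like nuclei, ratios of 0.53 and 0.52 and of 0.30 and 0.30. Chromatin at these loci was thus more open in members on both days, by smaller ratios than their RNA.

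Single loci ranged widely. At Ccr7 members held 47.6 and 51.1 fragment CPM, against 7.03 and 6.501 in cDC1-like and 18.3 and 17.2 in cDC2-like nuclei, which gives log2 ratios of 2.76 (2.22 to 3.32) and 2.98 (2.50 to 3.48), and of 1.38 (0.99 to 1.77) and 1.57 (1.37 to 1.77). At Slco5a1 they held 62.98 and 54.4, against 6.87 and 6.75 and against 9.13 and 8.61. At Fscn1, whose promoter is printed above, they held 15.4 and 18.1, against 8.37 and 5.44 and against 7.70 and 6.01. Il4i1 stood little apart, at 187 and 190 against 159 and 178 in cDC2-like nuclei. Past 2-fold over cDC1-like nuclei were 3 of the 7 rule-marker windows at D0 (2.45% of all windows) and 4 at D5 (3.35%), and over cDC2-like nuclei 4 (2.28%) and 3 (2.80%).

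Of all peaks in both libraries, the region with the highest ratio over both references was chr9:7670179-7671055 (mm10), 21034 bases from the start of the metalloproteinase gene Mmp7, with 33 and 105.5 fragments in members, none in cDC1-like nuclei on either day, and 1 and 5 in cDC2-like nuclei. Against the 3 fragments that a count of 0 allows in the cDC1-like group, members were at least 33.6-fold higher at D0 and at least 30.6-fold higher at D5. It was followed by regions in Ccdc33 at chr9:58101853-58102784 and chr9:58113988-58114898, by chr2:131840952-131841852 near 5330413P13Rik and by chr13:36463478-36464408, 111525 bases from Gm48767. The members' signal in the Ccdc33 regions was lower at D5, with log2 ratios of -1.31 (-2.01 to -0.60) and -1.14 (-1.84 to -0.41).

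Across genes, RNA and ATAC ratios of members over references went together, with Pearson's r of 0.50 at D0 (6469 genes) and 0.58 at D5 (6105 genes) over cDC1-like, and of 0.49 (6323 genes) and 0.60 (6041 genes) over cDC2-like nuclei. Genes are not independent replicates, and all points share the same nuclei and libraries.

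**Figure D4:**
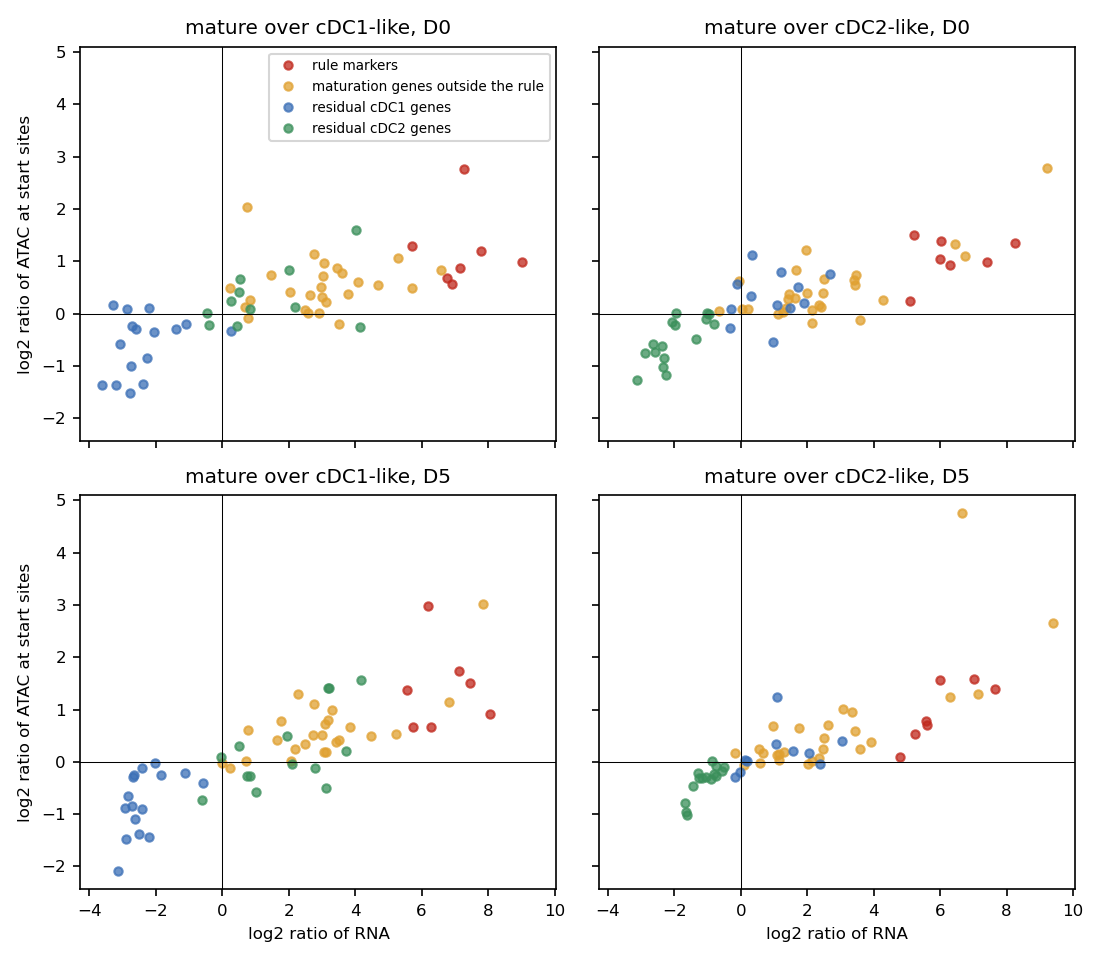
Log2 ratio of ATAC within 2 kb of the start sites (vertical axis) against log2 ratio of RNA (horizontal axis), mature Ccr7+ DC over cDC1-like or cDC2-like nuclei at D0 and D5, with 1 point per gene of the rule marker, maturation, cDC1 and cDC2 lists. Rule markers and most maturation genes lie in the upper right, cDC1 genes in the lower left over cDC1-like and cDC2 genes in the lower left over cDC2-like nuclei, and RNA ratios span a wider range than ATAC ratios.

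Chromatin also differed with the residual RNA. Over the 8 cDC1 loci, members with cDC1 RNA only held 275 fragment CPM at D0 (205 to 361) and 231 at D5 (185 to 284), near the 285 and 292 of cDC1-like nuclei. Members with cDC2 RNA only held 131 (101 to 166) and 117 (105 to 130), near the 124 and 111 of cDC2-like nuclei. The log2 ratio of the sums between these members was 1.08 (0.52 to 1.62) at D0 and 0.98 (0.63 to 1.32) at D5. The sums in members with cDC1 RNA only rest on 51.5 and 89 fragments. Of the 16 windows of the longer cDC1 list, 4 reached the fragment minimum at D0 and 12 at D5. Of these, 4 and 9 had ratios above 0 (medians 0.42 and 0.36), 1 and 3 with an interval wholly above 0. The ratio of the sums therefore does not hold for each locus. Over the 8 cDC1 loci, members with neither lay at 154 and 129. NK or T nuclei held 112 (104 to 120) and 51.9 (43.1 to 61.9) at these loci. Their interval at D0 overlaps that of members with cDC2 RNA only. Over the 9 cDC2 loci the split was smaller, with 206 and 166 in members with cDC1 RNA, 230 and 215 in members with cDC2 RNA and 183 and 193 in members with neither (log2 ratios of -0.16, -0.73 to 0.37, and -0.38, -0.77 to -0.01). cDC1-like nuclei held 119 and 135 there, and cDC2-like nuclei 240 and 244. Summed over the 8 cDC1 loci, chromatin was thus more open in the few D0 members with cDC1 RNA only than in those with cDC2 RNA only. As counted, the share of all D0 members with at least 2 cDC1 UMIs was not above that of NK or T nuclei. Without high doublet scores the ratio at the cDC1 loci was 1.34 and 1.04, and with windows of 10 kb it was 0.48 and 0.39. The rule-marker loci were least open in members with both kinds of RNA, at 320 (267 to 379) and 310 (285 to 337) fragment CPM, and most open in members with neither, at 468 (423 to 516) and 501 (469 to 534).

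**Figure D5:**
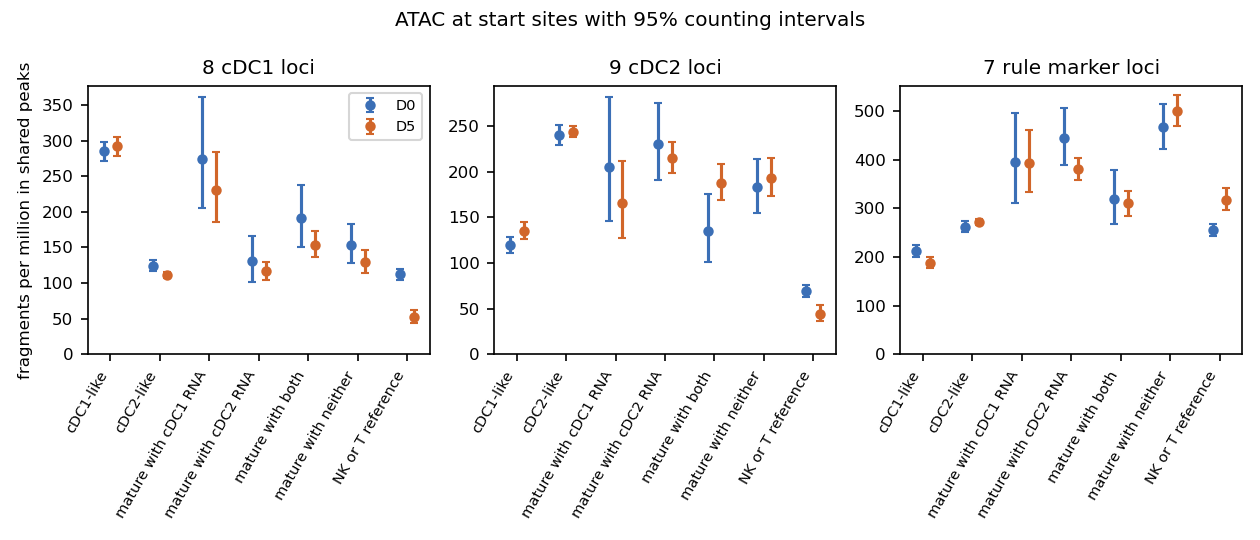
ATAC fragments within 2 kb of start sites, per 1000000 fragments in shared peaks, summed over the 8 cDC1, 9 cDC2 and 7 rule-marker loci (panels), in cDC1-like, cDC2-like and NK or T nuclei and in mature Ccr7+ DC nuclei split by residual RNA, at D0 and D5, with exact 95% Poisson intervals as bars. At the cDC1 loci mature nuclei with cDC1 RNA lie near cDC1-like nuclei, and those with cDC2 RNA near cDC2-like nuclei.

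Between the days, few start-site windows of members differed. Of 16920 start-site windows with at least 20 fragments, 165 (0.975%) were more than 2-fold higher at D5 and 251 (1.48%) more than 2-fold lower, and the maturation windows had a median ratio of 0.03. Of 70077 peaks with at least 20 fragments over both days, 3483 (4.97%) were higher and 3035 (4.33%) lower by this measure. Members held 1953109 fragments in shared regions at D0 and 7073096 at D5, so a peak near this minimum held few at D0. Such a peak can pass 2-fold through counting error. These shares are therefore not comparable with those of windows, which can join several peaks, or of RNA, which had a minimum of 20 CPM. Ccr7 had a ratio of 0.10 (-0.23 to 0.45). At Apol7c, with 12 and 18 fragments, the ratio was -1.27 (-2.41 to -0.09), and at Ifitm1, with 3.5 and 56.5 fragments, it was 2.16 (0.64 to 4.25), each in the direction of its RNA. At Cyp7b1, whose RNA had the highest ratio of all, it was -0.11 (-0.89 to 0.74).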

How the data were processed

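RNA and ATAC were measured in the same sorted liver nuclei by 10x Multiome in 1 library per day, and groups were taken from the labels. The authors deposited feature-barcode matrices of whole-number counts, UMIs per gene and transposase cut counts per peak, with peaks called per library on mm10. Per the labels these came from Cell Ranger ARC 2.0.2, while the RNA file headers name cellranger 6.0.2. Library totals were 44496348 and 94374499 UMIs over 16260 and 27873 barcodes.

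UMIs were summed over nuclei and scaled to CPM. Peak counts were divided by 2 to give fragments, in regions overlapping between libraries. With 1 library per day no test was possible and no p-value was computed. Intervals (Poisson, binomial, conditional for log2 ratios) are exact at 95% and cover counting error only, since UMIs of 1 library share its cells. Those of differences between shares are approximate. Genes with a mean of at least 20 CPM were compared, windows and peaks with at least 20 fragments, and a log2 ratio past 1 was counted. Doublets were scored with Scrublet (scanpy 1.11.5, expected rate 0.1) and kept, with results repeated without scores of at least 0.2. Nothing was removed for mitochondrial share in the main analysis.

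The members, lists and rules were chosen with earlier results of these data known. Named genes were the 7 rule markers, list members that results turn on, the 10 highest and 10 lowest ratios of D5 over D0 and of members over both references (without mitochondrial, Gm and Rik genes), and the 5 peaks highest over both references. Promoters were matched by symbol to RefSeq (19182 of 20267 symbols, 94.7%, start within 500 bases of the file's start site). Scripts were tested on simulated counts (python 3.11.15, numpy 2.4.6, scipy 1.17.1). Alternatives were thinning, TMM factors, other thresholds, no filter on low values, leaving out doublet scores, a mitochondrial limit of 10%, lineage minimum 3 and a 10 kb window. Those for shared barcodes, nuclei with neither lineage, a marker level per 1000 UMIs and thinning with doublet removal were chosen after seeing the data.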

Additional observations from a re-analysis of the deposited data

Results flagged for a closer look

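2 genes had ratios of D5 over D0 of opposite sign and past 2-fold in mature Ccr7+ DC and in cDC1-like nuclei, in 1 library per day, so that the difference was not tested. St6galnac3, a sialyltransferase, had a log2 ratio of 1.04 in mature Ccr7+ DC and -1.16 in cDC1-like nuclei. Ccl22 had -1.19 in mature Ccr7+ DC and 1.36 in cDC1-like nuclei.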

How the results depend on the processing

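No paired analysis was possible because each day is 1 library, and there was no replicate to leave out. Of 124 alternative values for the main results, 95 stayed within their limits and 29 moved. None of these main values changed sign, though medians of other lists did turn. The cause was not tested except where an alternative itself sets it (fewer UMIs, fewer or more genes). The mitochondrial limit kept all 395 and 1524 members. Its RNA ratios of D5 over D0 were thus bound to stay the same, and they count among the 95.

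The share difference was 3.43 points at a marker sum of at least 4, 2.38 at 7, 0.595 after thinning, 2.30 without high doublet scores and 1.79 with a level of at least 2 per 1000 UMIs. Genes more than 2-fold higher and lower at D5 numbered 240 and 478 after thinning, 185 and 106 with TMM factors, 3926 and 3319 with no filter on CPM, and 265 and 504 after thinning without high doublet scores. The split of calls by direction thus turned under TMM and with no filter. The maturation median (29 genes with a mean of at least 20 CPM in the main comparison) was -0.28 after thinning with the genes then tested, -0.51 without high doublet scores, -0.59 with TMM, -0.47 by marker level, -0.34 with both thinning and doublet removal, and -0.48 in nuclei with neither lineage. The cDC2 share was 58.1% at D0 and 76.8% at D5 after thinning, and 83.2% at D5 with at least 3 lineage UMIs. The maturation median over cDC1-like nuclei at D5 was 3.51 after thinning and 3.40 without high doublet scores. Over cDC2-like nuclei it was 2.49 at D0 and 2.90 at D5 after thinning, and 2.57 at D5 without high doublet scores. The cDC2 list median of D5 over D0 turned from 0.43 to -0.34 after thinning, -0.46 with doublet removal as well and -0.26 in nuclei with neither lineage, the immature list from 0.35 to -0.12 in those nuclei, and antigen presentation from -0.17 to 0.04 with TMM. For the cDC2 and immature lists, values in nuclei with neither lineage are partly set by the limit on cDC2 UMIs that chose those nuclei. With a 10 kb window the ATAC ratio at the cDC1 loci was 0.48 at D0 and 0.39 at D5.

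Of 586 alternative values for single genes, 6 had the opposite sign to a main ratio whose interval excluded 0. Changes of sign in genes whose main interval spanned 0 are not in that count. Ccr7 was at 0.044 after thinning and 0.037 with doublet removal as well, Il12b at 0.017 with both and 0.45 in nuclei with neither lineage, Rab7b at -0.052 with both, and Cadm1 at 0.15 without high doublet scores. Counts under about 20 UMIs, and lineage calls near 2 UMIs, are limited by depth.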
